A study of Mus musculus with 12 samples.

Results

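The interferon response and antigen processing genes are a list of 39 mouse genes that spans interferon receptors, the transcription factors below them, genes that interferons induce, and the proteins that cut and load peptides for class I antigen presentation. Each gene was represented by a probe set of the Affymetrix MOE 430 2.0 array that carries its symbol alone, and, where several did, by the one with the highest mean log2 signal over the 12 arrays. The probe sets were thus selected on their level over all arrays and not on a zone difference, but the list itself was proposed with zone differences of these data known, so that counts over it are descriptions. Of the 39 genes, 37 had such a probe set (Isg15 and Ifi44 had none), among 18193 genes on the array, and 22 reached the signal floor, a zone mean of 50 or more in any zone, and were tested, among 11808 genes.

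Tibiae of CD1 mouse embryos at embryonic day 15.5, with no treatment and no genetic change, were cut by hand into 3 zones along the course of chondrocyte maturation. Zone I, at the end of the bone, held resting and dividing chondrocytes. In zone II most cells were entering hypertrophy or had become hypertrophic, and zone III took in the last hypertrophic stage together with mineralised tissue. Each of 4 litters was a separate trial whose segments were pooled by zone, which gave 4 arrays (A to D) for each zone, and the labels do not say whether a letter marks the same litter in every zone. The zones are tissue pieces that hold several cell types, so that fewer cells of a type and less RNA per cell cannot be told apart in any value given here.

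Interferons are secreted proteins that bind paired receptor chains, Ifnar1 with Ifnar2 for type I and Ifngr1 with Ifngr2 for type II interferon. The receptors activate Janus kinases and STAT proteins, which with Irf9 and other interferon regulatory factors switch on a set of antiviral genes, many of which cells also keep at a low level without infection. Interferons also raise the immunoproteasome subunits (Psmb8, Psmb9 and Psmb10), the peptide transporter of Tap1 and Tap2, and B2m, the light chain of class I antigen-presenting molecules. In growing bone, macrophages and osteoclast precursors respond to interferons, and interferons are known to restrain osteoclast formation.

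Zone III had the highest mean signal for every tested gene but Irf9, Ifit2 and Ifitm2, which were highest in zone I. From zone II to zone III 21 of the 22 tested genes rose and 0 fell (adjusted p under 0.05, limma), where 30.8% of all tested genes rose and 22.7% fell. Between zone II and zone I 1 gene rose (Trim25) and 8 fell (Ifngr2, Stat3, Irf9, Irf1, Ifit2, Ifitm2, Ifitm3 and Ifi202b), beside 16% and 25.4% of all tested genes. Between zone III and zone I 15 rose and 2 fell (Ifit2 and Ifitm2), beside 21.6% and 21.7%. The median log2 difference over the 22 genes was 1.19 for zone III against II, -0.28 for zone II against I and 0.69 for zone III against I, while over all tested genes it was 0.08, -0.09 and -0.01.

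**Figure D1:**
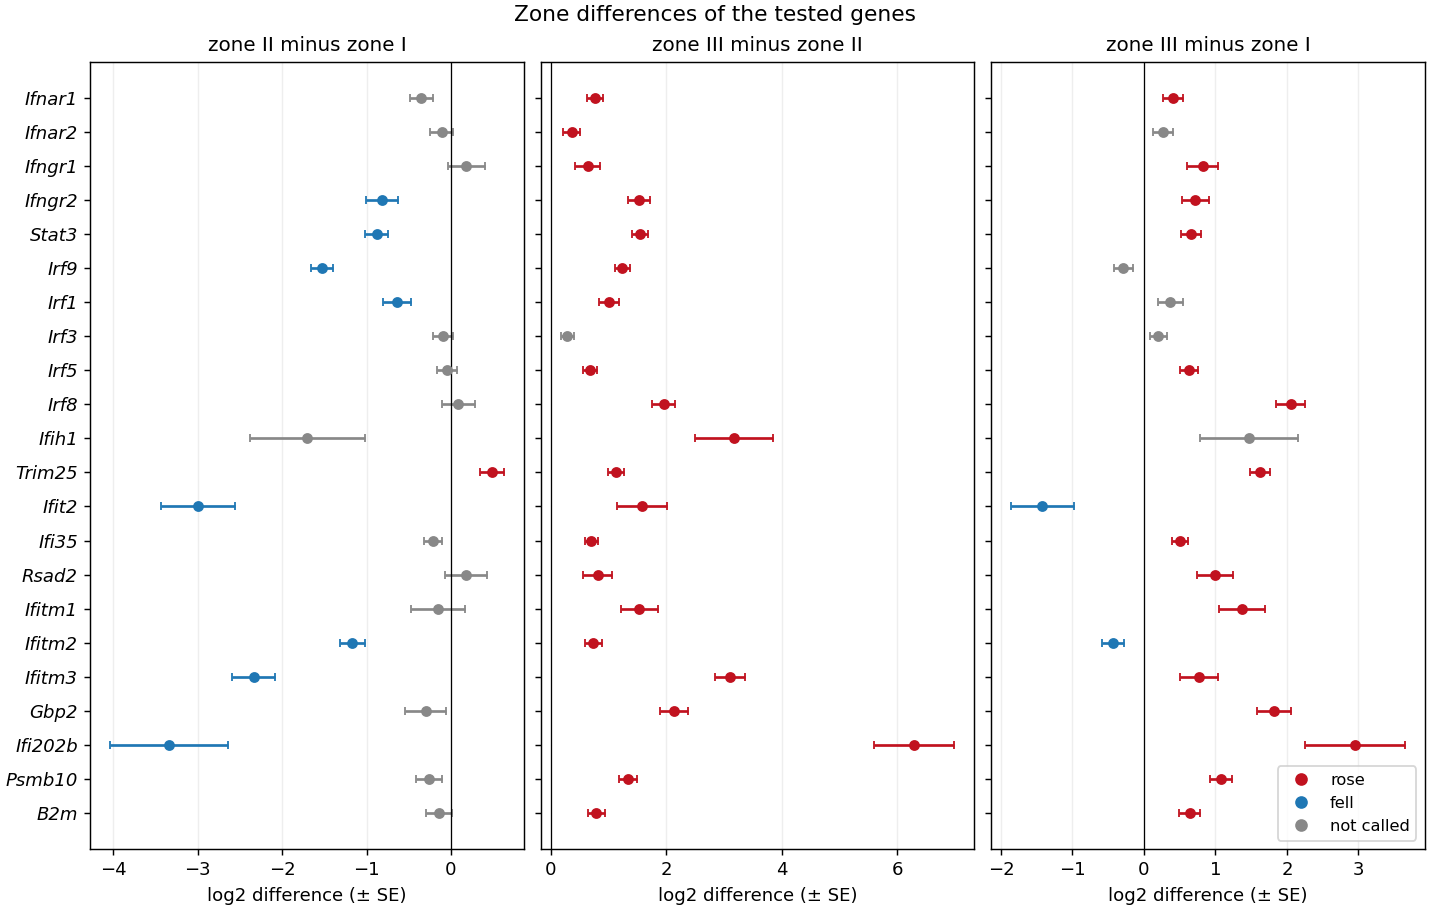
Log2 differences of the 22 tested genes with the standard error from limma, for zone II minus I, zone III minus II and zone III minus I. Red marks genes that rose, blue genes that fell and grey genes not called at an adjusted p of 0.05, and in the middle panel every gene but Irf3 is red.

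A gene low in zones I and II could be tested only because it was high in zone III, so the counts lean towards zone III by construction. Irf5, Irf8, Ifih1 and Gbp2 reached the floor in zone III alone, and Ifit2 in zone I alone. Among the 14 genes that reached the floor in every zone, 13 rose and 0 fell from zone II to III, 1 rose and 5 fell between zones II and I, and 10 rose and 1 fell between zones III and I. Of the 9662 genes of the whole array that reached it in every zone, 26.5% rose and 24.8% fell, 17.2% rose and 22.5% fell, and 18.6% rose and 21.5% fell in the same comparisons. The 4 arrays of zone III all lay above the 4 of zone II for 19 of the 22 genes, a pattern that 30% of all tested genes had, and all 4 arrays of zone II lay below those of zone I for 8 genes, which 22.5% of all tested genes had. With a change of at least 1.5-fold required as well, 20 genes rose and 0 fell from zone II to III (24.7% and 14.1% of all tested genes), 0 rose and 8 fell between zones II and I (8.49% and 19%), and 13 rose and 1 fell between zones III and I (16.5% and 14.8%). Just under the signal floor stood Tap2 and Irf7, whose highest zone means were 48.1 and 46.7, and just above it Ifit2 (59.7) and Irf5 (64.6).

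Several other measures moved with the zones. The summed signal of 16 tested macrophage and other myeloid markers of 22 listed lay at 1917 to 3173, 981 to 1599 and 7499 to 9408 in zones I, II and III. All 16 rose from zone II to III (Cd68 by 4.84 ± 0.27 and Ptprc by 4.30 ± 0.23 on the log2 scale, SE). Of these 16, 1 rose and 8 fell between zones II and I, and 10 rose and 2 fell between zones III and I. The sum of 13 endothelial markers lay at 1273 to 2077, 475 to 991 and 4032 to 4494 in zones I, II and III, that of 11 osteoclast markers at 995 to 1145, 926 to 2035 and 13470 to 15910, and that of 8 osteoblast markers at 4652 to 6271, 7547 to 10870 and 15660 to 18170. The 11 tested markers of fibrous tissue and perichondrium stood highest in zone I, with sums of 17520 to 22070, 9351 to 11870 and 11790 to 13930 in zones I, II and III, as Irf9, Ifit2 and Ifitm2 did. Of these 11, 1 rose and 8 fell between zones II and I, 6 rose and 1 fell from zone II to III, and 1 rose and 8 fell between zones III and I. Of all tested genes 16% rose and 25.4% fell, 30.8% rose and 22.7% fell, and 21.6% rose and 21.7% fell in these comparisons. Of 14 lymphoid markers 3 were tested, with sums of 253 to 383, 209 to 345 and 172 to 358, and 12 early cartilage markers, the defining genes of the labelled tissue, summed to 28730 to 35010, 41810 to 45350 and 13760 to 16720. No marker was listed at 0. The ratio of the 3' to the 5' Gapdh probe sets, a sign of RNA integrity, was 1.27 to 1.76, 1.25 to 1.51 and 1.98 to 2.28 in zones I, II and III, while that of actin ran the other way (2.09 to 2.95, 2.63 to 3.23 and 1.70 to 2.02). The part of these cells and of RNA integrity in the results below was not tested.

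**Figure D2:**
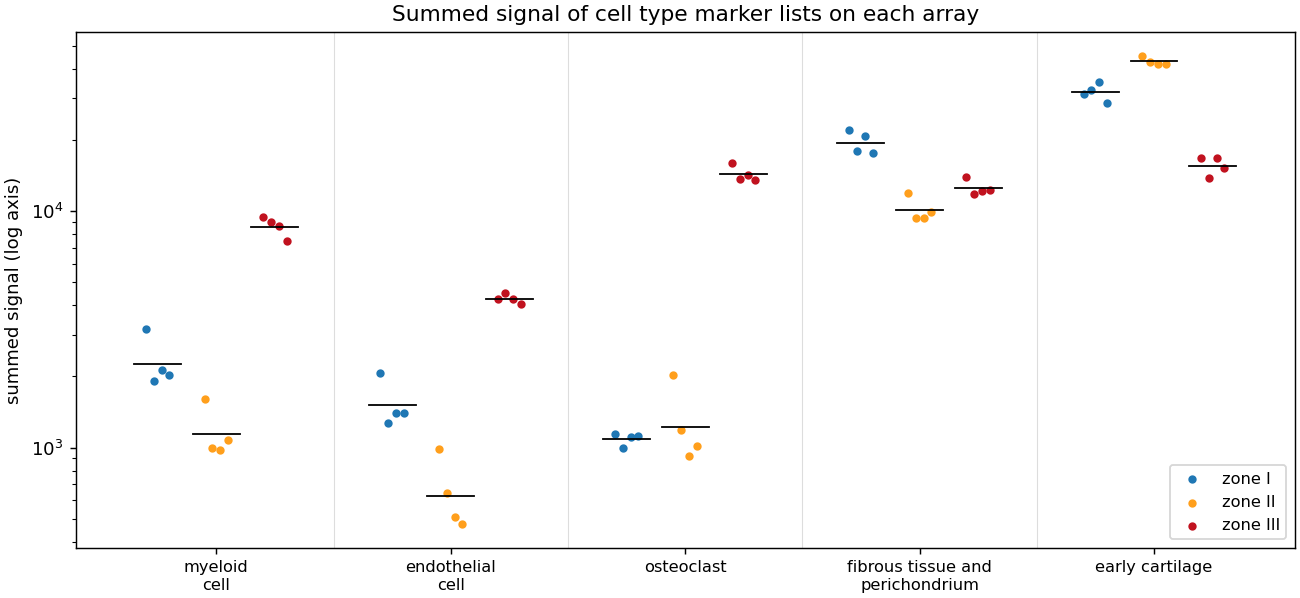
Summed signal of 5 marker lists on each of the 12 arrays (log axis), with 4 points for each zone and a line at their geometric mean. Myeloid, endothelial and osteoclast markers stand highest in zone III (myeloid 7499 to 9408, against 981 to 1599 in zone II), early cartilage markers lowest there, and fibrous tissue markers highest in zone I.

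Promoter sequence of the same genes was searched without array values, but the list was proposed with zone differences of these data known. Many of its genes are listed because interferons induce them, so a high share of interferon motifs is no separate view of the zone results. RefSeq windows from 250 bases before to 50 bases after the start (GRCm38.p6) were matched to 35 of the 39 genes, 40 windows in all, and searched on both strands for 3 motifs. The interferon-stimulated response element, searched as GAAA, any 2 bases and GAAA, was held by 13 of the 40 windows, each of a different gene, and by 3.4% of all 32851 windows. The gamma-activated site in the form TTCNNNGAA was in 11 windows and in 8.3% of all, and a short NF-kappaB form, GGGA, any 4 bases and CC, in 8 windows and in 20.7% of all. In 3 windows both of the interferon motifs were found, and at 2 places a match of one overlapped a match of the other. The 13 genes with the response element comprised 6 tested genes, 6 genes under the signal floor and Isg15. A match is a description of the letters and not a bound site. The reference is the C57BL/6J strain, not CD1.

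The 150 bases before the start are shown for 4 tested genes with a whole response element there, for the tested genes Irf1 and Ifi202b with a gamma-activated site there, and for Ifit1, which holds a pair of response elements and stayed under the signal floor. Capitals mark matches of the response element and the gamma-activated site, while NF-kappaB matches (in B2m, Irf1 and Rsad2) are left in lower case, and each stretch runs 5′ to 3′ on the strand of the gene.
Gbp2, chr3:142620513-142620662, plus strand: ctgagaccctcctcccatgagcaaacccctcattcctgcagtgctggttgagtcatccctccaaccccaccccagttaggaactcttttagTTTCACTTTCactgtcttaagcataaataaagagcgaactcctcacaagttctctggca
B2m, chr2:122147537-122147686, plus strand: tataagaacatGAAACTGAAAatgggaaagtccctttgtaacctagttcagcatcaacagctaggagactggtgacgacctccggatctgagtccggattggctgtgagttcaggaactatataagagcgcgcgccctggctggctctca
Ifitm2, chr7:140955962-140956111, minus strand: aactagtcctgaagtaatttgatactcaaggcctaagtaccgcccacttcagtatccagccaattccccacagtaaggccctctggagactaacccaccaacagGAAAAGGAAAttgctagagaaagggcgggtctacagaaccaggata
Rsad2, chr12:26456453-26456602, minus strand: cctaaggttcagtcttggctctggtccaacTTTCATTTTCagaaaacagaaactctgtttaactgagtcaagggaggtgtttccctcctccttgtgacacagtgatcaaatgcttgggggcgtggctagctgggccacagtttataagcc
Irf1, chr11:53769864-53770013, plus strand: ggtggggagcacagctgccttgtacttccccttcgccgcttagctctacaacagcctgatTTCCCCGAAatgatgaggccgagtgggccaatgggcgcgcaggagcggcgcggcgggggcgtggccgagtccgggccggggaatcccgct
Ifi202b, chr1:173982845-173982994, minus strand: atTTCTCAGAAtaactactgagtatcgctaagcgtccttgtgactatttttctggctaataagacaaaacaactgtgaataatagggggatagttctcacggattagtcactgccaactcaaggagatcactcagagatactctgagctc
Ifit1, chr19:34640739-34640888, plus strand: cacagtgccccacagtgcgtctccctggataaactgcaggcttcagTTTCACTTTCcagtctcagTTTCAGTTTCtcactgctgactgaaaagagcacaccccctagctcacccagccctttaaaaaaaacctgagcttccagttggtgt

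The letters in capitals begin 59 bases before the start in Gbp2, 139 in B2m, 46 in Ifitm2 and 120 in Rsad2, and 104 and 85 bases before it in Ifit1. The Gbp2 and Ifit1 stretches share the letters TTTCACTTTC, the response element read on the other strand. Of these 7 genes Gbp2, B2m, Rsad2, Irf1 and Ifi202b had their highest mean signal in zone III, Ifitm2 had it in zone I, and Ifit1 stayed under 35 on every array.

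The 4 receptor chains were all measured well enough to test, and all 4 rose from zone II to zone III. By the probe set used for each gene, the largest step was that of Ifngr2 (1423558_at), the signalling chain of the type II receptor. Ifngr2 signals on arrays A to D were 88.7, 132.7, 80.2 and 83.1 in zone I, 63.5, 61.3, 53.1 and 39.5 in zone II, and 171.3, 160.3, 131 and 159.5 in zone III. No zone II array reached a zone I or zone III array, and the log2 difference was 1.53 ± 0.19 (SE) for zone III against II (adjusted p = 2.8e-05, limma), -0.82 ± 0.19 for zone II against I (0.00497) and 0.72 ± 0.19 for zone III against I (0.0094). A second Ifngr2 probe set gave 2.48 ± 0.31, -1.52 ± 0.31 and 0.95 ± 0.31 for the same comparisons.

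Ifngr1 (1448167_at), the ligand-binding chain of the same receptor, was 278, 243.5, 239 and 246 in zone I, 296, 246, 368 and 243.5 in zone II, and 274, 457, 517 and 593 in zone III. Array A of zone III lay among those of the other zones and the remaining 3 above them. The log2 difference was 0.64 ± 0.22 for zone III against II (adjusted p = 0.0263) and 0.82 ± 0.22 for zone III against I (0.00919), with 0.18 ± 0.22 for zone II against I (0.559). Arrays with the same recorded hybridization date and time were taken as the same fluidics run, and each of the 3 runs held arrays of every zone. Within these runs the Ifngr1 difference for zone III against II was -0.11, 0.60 and 1.18. Its call was lost without zone II array B or D or zone III array B, C or D (differences of 0.50 to 0.62, adjusted p = 0.0566 to 0.0839).

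Of the type I chains, Ifnar1 (1449026_at) averaged 153 ± 17.8, 120.0 ± 20.9 and 201.2 ± 8.54 in zones I, II and III (SD, n = 4 each), and its log2 difference was 0.76 ± 0.14 for zone III against II (adjusted p = 5.2e-04), -0.35 ± 0.14 for zone II against I (0.0573) and 0.41 ± 0.14 for zone III against I (0.0309). Ifnar2 (1451462_a_at) averaged 171.3 ± 27.1, 158.3 ± 20.3 and 203.0 ± 15.4, with a difference of 0.36 ± 0.14 for zone III against II (0.0482), -0.11 ± 0.14 for zone II against I (0.592) and 0.26 ± 0.14 for zone III against I (0.173). The Ifnar2 arrays of zones II and III met at 186, and on quantile-normalized signals its zone III against II difference was 0.13 and not called (0.505). A second Ifnar2 probe set (1440169_x_at) gave 1.57 ± 0.20 for zone III against II and 1.12 ± 0.20 for zone III against I, and one more (1427691_a_at) gave 2.63 ± 0.43 and 1.43 ± 0.43 with a fall of -1.19 ± 0.43 between zones II and I. Leaving out single arrays ended the Ifnar1 call for zone III against I in 6 cases (zone I C or D, or any zone III array, 0.33 to 0.42, adjusted p = 0.0529 to 0.0908) and the Ifnar2 call for zone III against II in 9 (every array but zone I B or D and zone II B, 0.31 to 0.40, adjusted p = 0.0547 to 0.119).

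Among the transcription factors, 6 of 9 were tested, 5 rose from zone II to III, and 3 fell between zones II and I. Irf9 (1421322_a_at), the DNA-binding subunit of the complex that type I interferon activates, had the most regular dip. Its signals were 133.3, 103.7, 145.4 and 127 in zone I, 47.7, 35.9, 46.6 and 45.7 in zone II, and 101.4, 95.1, 111 and 105.7 in zone III. Every zone II array lay below every other array, with a log2 difference of -1.53 ± 0.13 for zone II against I (adjusted p = 3.5e-06) and 1.24 ± 0.13 for zone III against II (8.5e-06), while zone III did not reach a call against zone I (-0.29 ± 0.13, 0.0979). That last value was called without zone I array B (-0.39, adjusted p = 0.0309) and on quantile-normalized signals (-0.39, 0.0428).

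Stat3 (1460700_at), which carries signals of many cytokines besides interferons, was 362, 376, 372 and 266 in zone I, 174, 187, 165 and 218 in zone II, and 592, 490, 512 and 567 in zone III. The zones did not overlap, and the log2 difference was -0.88 ± 0.14 for zone II against I, 1.54 ± 0.14 for zone III against II and 0.66 ± 0.14 for zone III against I. Of its 3 other tested probe sets, 1426587_a_at moved in the same directions in every comparison, 1459961_a_at rose in zone III (1.14 ± 0.30 against zone II and 1.04 ± 0.30 against zone I) with no call between zones II and I, and 1424272_at was not called (-0.39 ± 0.23 for zone III against II). Irf1 (1448436_a_at), an activator that type II interferon induces, averaged 283 ± 56.5, 180.4 ± 30.6 and 360.2 ± 22.9 in zones I, II and III, with -0.64 ± 0.17 for zone II against I (adjusted p = 0.00975) and 1.01 ± 0.17 for zone III against II (2.9e-04). Within fluidics runs the Irf1 difference between zones II and I was -0.69, -1.04 and 0.13.

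Irf8 (1416714_at), a factor of the macrophage and dendritic cell lineages that restrains osteoclast formation, was level in zones I and II and stepped up in zone III. Its signals were 44.5, 25.6, 39.3 and 41.2 in zone I, 47.8, 49.5, 31.2 and 32.2 in zone II, and 156.2, 141, 157.2 and 158.3 in zone III. The 4 zone III arrays stood clear of the rest (1.96 ± 0.20 against zone II, adjusted p = 5.1e-06, and 2.05 ± 0.20 against zone I, 5.1e-06), and a second probe set gave 3.62 ± 0.50 and 3.98 ± 0.50. Irf5 (1460231_at), which acts below Toll-like receptors, averaged 41.9 ± 4.86, 40.4 ± 3.54 and 64.6 ± 5.49, and rose by 0.68 ± 0.12 against zone II and 0.63 ± 0.12 against zone I. Irf5 and both Irf8 probe sets reached the signal floor in zone III alone, so their zone III calls lean that way by construction. Irf3 (1426111_x_at), the factor that nucleic acid sensors activate to start interferon production, was the single tested gene with no call in any comparison (0.29 ± 0.12 for zone III against II, adjusted p = 0.0569). Its second probe set (1416898_a_at) was called there, with 0.43 ± 0.10 for zone III against II and 0.41 ± 0.10 for zone III against I.

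**Figure D3:**
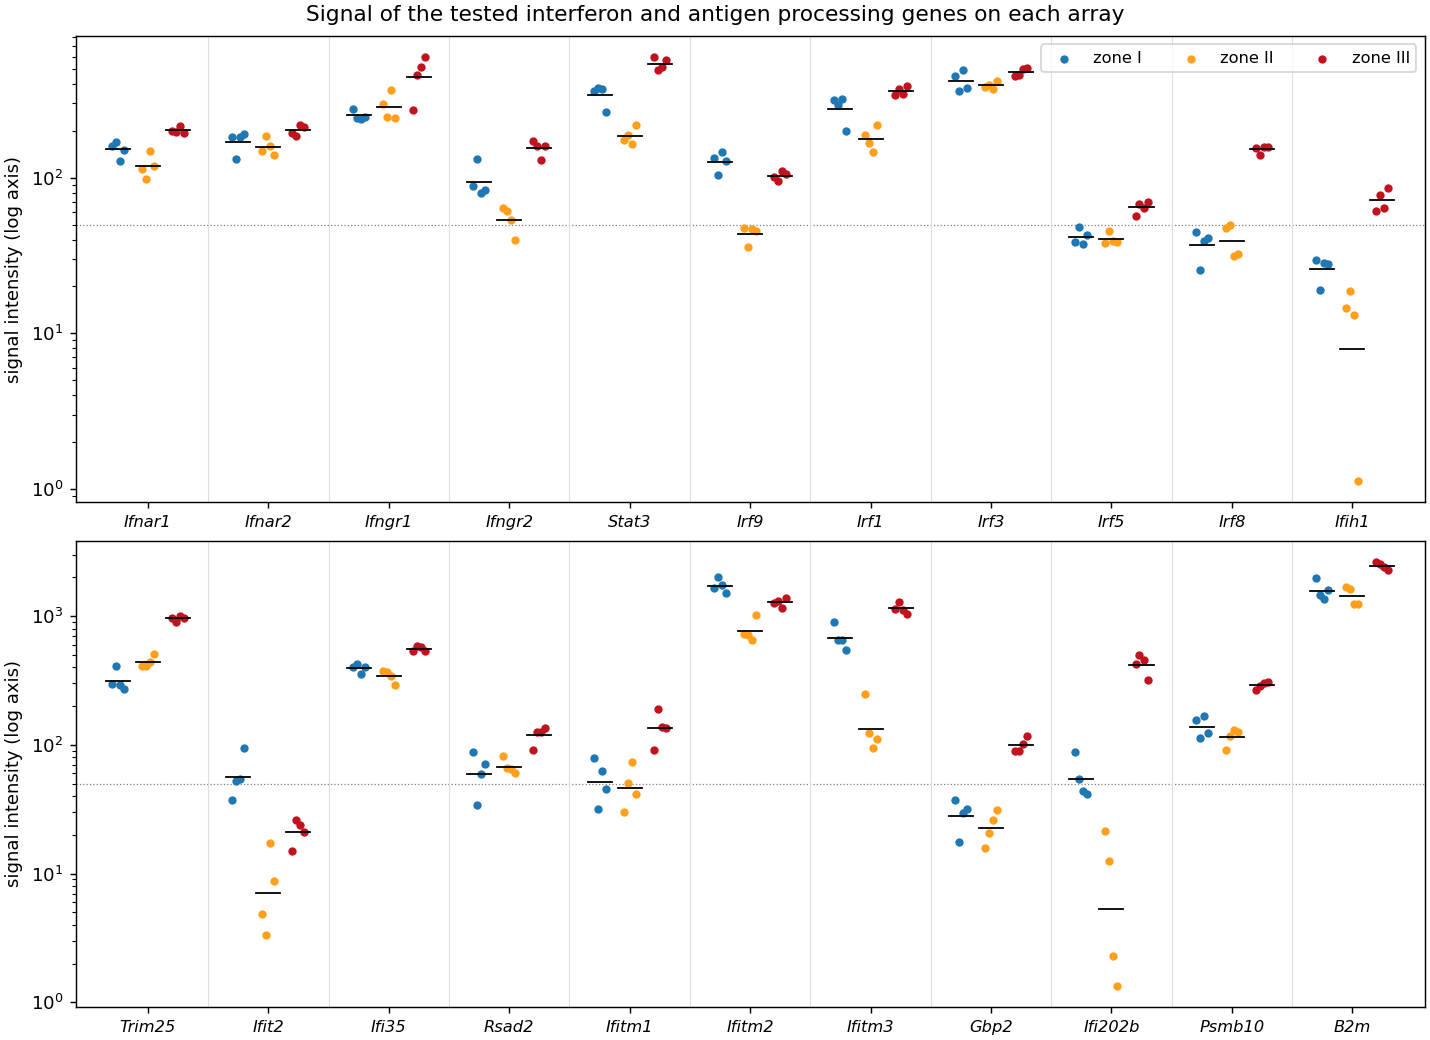
Signal of the 22 tested genes on each of the 12 arrays (log axis), with zones I, II and III from left to right within each gene, a line at the geometric mean of the 4 arrays and a dotted line at the signal floor of 50. Zone III lies above zone II for all 22 genes by this mean, and Irf9, Ifit2 and Ifitm2 stand highest in zone I.

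The 2 tested genes of sensing and feedback took different courses. Trim25 (1419879_s_at), the ubiquitin ligase that helps activate the RNA sensor RIG-I, climbed from zone to zone. Its signals were 295, 408, 294 and 272 in zone I, 407, 406, 439.5 and 510.3 in zone II, and 973, 906, 1002 and 968 in zone III. Zone III stood clear of the other zones, and array B of zone I lay among those of zone II. Trim25 rose by 1.13 ± 0.14 in zone III against II (adjusted p = 2.2e-05) and by 1.62 ± 0.14 against zone I (1.6e-06). The step of 0.49 ± 0.14 between zones II and I (0.014) was not called for its other 2 probe sets (0.28 ± 0.14 and 0.26 ± 0.21) or after centring on ribosomal protein genes (0.24, adjusted p = 0.264).

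Ifih1 (1426276_at), the sensor of long double-stranded RNA, was 29.6, 19.0, 28.2 and 28.0 in zone I, 14.6, 18.7, 13.1 and 1.12 in zone II, and 61.0, 77.9, 64.2 and 86.5 in zone III. All 4 zone III arrays lay above all others, and the difference was 3.17 ± 0.68 against zone II (adjusted p = 0.00197) and 1.47 ± 0.68 against zone I (0.107). Ifih1 reached the signal floor in zone III alone, so its zone III calls lean that way by construction. Zone II array D decides the size of the differences from zone II. Without it the difference was 2.23 against zone II, that between zones III and I was of the same size and was called (adjusted p = 6.9e-05), and that between zones II and I was -0.76 (adjusted p = 0.011), against -1.70 ± 0.68 with it (0.0688). On log2 of the signal plus 16, which shrinks differences among low signals, Ifih1 was called in every comparison (-0.64 for zone II against I, 1.70 for zone III against II and 1.06 for zone III against I).

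The Ifitm genes encode small membrane proteins that block the entry of viruses. Ifitm3 (1423754_at) made one of the widest swings of the list, with 895, 648, 656 and 543 in zone I, 246, 124, 93.8 and 110.5 in zone II, and 1141, 1295, 1118 and 1046 in zone III. The zones did not overlap. Ifitm3 fell by 2.34 ± 0.26 on the log2 scale between zones II and I (adjusted p = 2.3e-05) and rose 8.60-fold from zone II to III (3.10 ± 0.26, 1.0e-06).

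Ifitm2 (1417460_at) was 1663, 2005, 1726 and 1516 in zone I, 719, 718, 646 and 1020.0 in zone II, and 1269, 1308, 1162 and 1386 in zone III. It shared the dip of Ifitm3 (-1.17 ± 0.15 for zone II against I and 0.74 ± 0.15 for zone III against II), but its zone III arrays all lay below those of zone I. Between zones III and I Ifitm3 rose by 0.77 ± 0.26 (adjusted p = 0.0311) and Ifitm2 fell by 0.43 ± 0.15 (0.036). Each of these calls was lost on leaving out any of 6 single arrays, zone I B, C or D or zone III A, B or C for Ifitm3 (0.66 to 0.78, adjusted p = 0.0573 to 0.0863) and zone I A, B or C or zone III A, B or C for Ifitm2 (-0.44 to -0.35, adjusted p = 0.0566 to 0.0966), and the Ifitm2 value was -0.27 after ribosomal centring.

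Ifitm1 (1424254_at) averaged 54.8 ± 20.5, 49.0 ± 18.3 and 138.3 ± 40.1 in zones I, II and III. It rose by 1.53 ± 0.32 against zone II (adjusted p = 0.00178) and by 1.37 ± 0.32 against zone I (0.00471), with -0.15 ± 0.32 between zones II and I. Ifitm5, the family member known from osteoblasts and listed here among their markers, rose by 3.79 ± 0.27 between zones II and I and by 5.48 ± 0.27 between zones III and I.

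Ifi202b (1421551_s_at), a DNA-binding protein of a family with near-identical copies, had the largest differences of the list by the probe set used for each gene. Its signals were 87.3, 54.1, 43.9 and 41.8 in zone I, 21.2, 12.4, 2.31 and 1.35 in zone II, and 426, 496, 455 and 317 in zone III. Each zone was separate from the others, with -3.34 ± 0.70 for zone II against I (adjusted p = 0.00259), 6.29 ± 0.70 for zone III against II (1.2e-05) and 2.95 ± 0.70 for zone III against I (0.00495). On log2 of the signal plus 16 the values were -1.55 for zone II against I and 4.17 for zone III against II. The fall of Ifit2 between zones II and I was larger on that scale, so the ranking does not hold there. The suffix of the Ifi202b probe set marks probes that can match more than 1 transcript, so that part of the signal may belong to another copy. The probe sets used for Trim25, Ifi35, Irf2 and Irf3 carry a suffix of this kind (s or x) as well, and so do those of Tlr3, Socs3 and Ifi27 below.

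Gbp2 (1418240_at), a GTPase that acts on vacuoles of pathogens, was 37.3, 17.5, 29.7 and 31.5 in zone I, 15.7, 20.8, 26.0 and 30.9 in zone II, and 89.8, 89.9, 102 and 117 in zone III. Zones I and II overlapped throughout (-0.30 ± 0.24, adjusted p = 0.362), and zone III stood above both (2.13 ± 0.24 against zone II and 1.82 ± 0.24 against zone I). A second Gbp2 probe set gave 4.31 ± 0.44 and 3.37 ± 0.44. Both probe sets reached the signal floor in zone III alone, so these calls lean that way by construction.

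Ifit2 (1418293_at), which binds viral RNA and slows its translation, was of the 3 tested genes with their highest mean in zone I the one with the widest log2 margin. It was 37.1, 52.5, 54.7 and 94.5 in zone I, 4.83, 3.36, 17.4 and 8.77 in zone II, and 14.9, 26.3, 23.8 and 21.0 in zone III. Zone I lay above both other zones, which overlapped each other. As the floor was reached in zone I alone, the calls of Ifit2 against zone I lean that way by construction. Ifit2 fell by 3.0 ± 0.44 between zones II and I (adjusted p = 2.2e-04), rose by 1.58 ± 0.44 in zone III against II (0.00985) and stayed below zone I there (-1.42 ± 0.44, 0.0215). On log2 of the signal plus 16 the values were -1.60 for zone II against I and 0.63 for zone III against II, and the call for zone III against I was lost without zone I array D or zone III array A (-1.25 to -1.17, adjusted p = 0.0623 to 0.0671).

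Of the other antiviral genes, Ifi35 (1445897_s_at), a regulator of sensor signalling, averaged 395.5 ± 30.1, 344 ± 38.2 and 557 ± 23.6 in zones I, II and III and rose by 0.70 ± 0.11 against zone II and by 0.50 ± 0.11 against zone I (1.41-fold). Another Ifi35 probe set (1424617_at) gave 0.52 ± 0.18 and, not called, 0.41 ± 0.18. Rsad2 (1436058_at), also known as viperin, averaged 63.2 ± 22.6, 68.1 ± 9.45 and 119.7 ± 19.1 and rose by 0.81 ± 0.25 against zone II (adjusted p = 0.0161) and by 0.99 ± 0.25 against zone I (0.00672). Its step from zone II was not called after quantile normalization (0.55, adjusted p = 0.0559) or median centring (0.56, 0.0767).

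In antigen processing, Psmb10 and B2m were tested, and both rose in zone III with no call between zones II and I. Psmb10 (1448632_at), an inducible catalytic subunit of the immunoproteasome, was 154.5, 113, 168.4 and 122.5 in zone I, 91.6, 116.5, 130.2 and 125.5 in zone II, and 268, 288, 302 and 306 in zone III. B2m (1449289_a_at) was 1961, 1455, 1349 and 1600.0 in zone I, 1667, 1624, 1230.0 and 1239 in zone II, and 2626, 2544, 2413 and 2259 in zone III. For both genes zones I and II overlapped and zone III lay above them, by 1.34 ± 0.15 for Psmb10 (adjusted p = 1.4e-05) and 0.79 ± 0.15 for B2m (7.5e-04) against zone II, and by 1.08 ± 0.15 and 0.64 ± 0.15 against zone I. A second B2m probe set gave 0.91 ± 0.13 and 0.57 ± 0.13.

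From zone II to zone III the standard subunits of the proteasome core fell while Psmb10 rose. Of 14 tested, 13 rose and 0 fell between zones II and I and 0 rose and 13 fell from zone II to III, with medians of 0.44 and -0.66. Of all tested genes 16% rose and 25.4% fell, and 30.8% rose and 22.7% fell, in these comparisons. Between zones III and I, where Psmb10 also rose, 0 of the 14 rose, 3 fell and 11 were not called (median -0.15). The shares of all tested genes there were 21.6% that rose and 21.7% that fell. Psmb5, Psmb6 and Psmb7, the catalytic subunits whose places Psmb8, Psmb9 and Psmb10 take, are named here with their values already seen. Psmb6 averaged 1637 ± 133, 2548 ± 326 and 1575 ± 55.6 in zones I, II and III, with 0.63 ± 0.11 for zone II against I and -0.69 ± 0.11 for zone III against II. Psmb7, whose counterpart is Psmb10, had 0.36 ± 0.14 (not called, adjusted p = 0.0604) and -0.75 ± 0.14, and Psmb5 had 0.46 ± 0.11 and -0.27 ± 0.11 (not called, 0.0521). After ribosomal centring the counts were 4 that rose between zones II and I and 7 that fell from zone II to III, and after quantile normalization 5 and 8, with no gene called the other way in either.

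**Figure D4:**
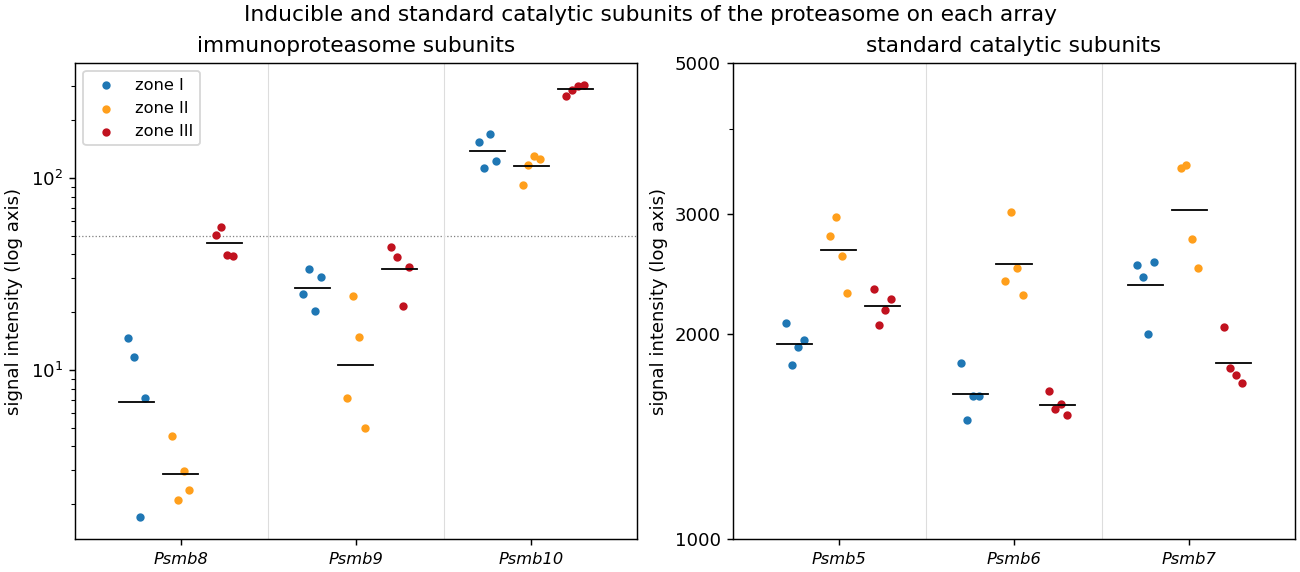
Signals of the immunoproteasome subunits (left) and of the standard catalytic subunits (right) on each array (log axes with different ranges), zones I, II and III from left to right in each gene, with a line at the geometric mean and the signal floor of 50 dotted. By this mean Psmb8, Psmb9 and Psmb10 stand highest in zone III, Psmb8 and Psmb9 near or under the floor, and Psmb5, Psmb6 and Psmb7 stand highest in zone II. The zone III arrays of Psmb9 overlap those of both other zones, and its difference from zone I was not called (0.32 ± 0.44).

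Of 9 other tested genes of class I molecules and peptide loading, 6 rose and 3 fell from zone II to III. Of all tested genes 30.8% rose and 22.7% fell there, shares that also apply to the class II counts below. The class I heavy chain H2-D1 averaged 144 ± 17.4, 56.3 ± 15.3 and 620.4 ± 39.4 in zones I, II and III and rose by 3.50 ± 0.18 against zone II (adjusted p = 3.3e-08) after a difference of -1.39 ± 0.18 between zones II and I. H2-K1, another heavy chain, rose by 1.06 ± 0.14 against zone II, the peptide-trimming enzyme Erap1 by 1.33 ± 0.15 and the non-classical H2-M3 by 0.91 ± 0.13. The 3 that fell were the general chaperones of the endoplasmic reticulum Calr, Canx and Pdia3 (-0.40, -0.56 and -0.51), and after quantile normalization or ribosomal centring 0 of the 9 were called lower there. Of 5 tested class II genes H2-Aa, H2-Eb1 and Cd74 rose from zone II to III (0.89 ± 0.23, 0.68 ± 0.16 and 0.62 ± 0.20), while the peptide exchange factor H2-DMa fell by 2.74 ± 0.22 and H2-DMb2 was also called lower. Of these 5, after quantile normalization 1 rose and 2 fell, after median centring 2 rose and 2 fell, and after ribosomal centring 3 rose and 1 fell. The probe sets of H2-K1, H2-D1 and H2-Aa carry a suffix that marks probes shared with related genes.

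The 15 genes under the signal floor had zone means between 2.995 and 48.1, where the table carries no detection call. In a fit without the floor, 0 rose and 2 fell (Gbp3 and Tap1) between zones II and I, 6 rose and 0 fell (Oasl2, Gbp3, Psmb8, Psmb9, Tap1 and Tap2) from zone II to III, and 4 rose and 0 fell (Irf2, Gbp3, Psmb8 and Tap2) between zones III and I. In the same fit 7.63% of all genes rose and 14.1% fell, 19.3% rose and 13.1% fell, and 12.5% rose and 12% fell in these comparisons. Those shares are over all 18193 genes, among them the 11808 that reached the floor, so they are not shares of genes with like signals. Psmb8 was 14.8, 11.7, 1.71 and 7.11 in zone I, 4.54, 2.10, 2.96 and 2.37 in zone II, and 50.2, 55.5, 39.8 and 39.4 in zone III, so that its zone III arrays stood apart from the rest. Gbp3 averaged 22.96 ± 5.49, 8.27 ± 1.84 and 41.3 ± 8.57, and Tap1 40.5 ± 8.48, 19.8 ± 3.36 and 38.3 ± 13.1. Stat2, Irf7, Usp18, Ifit1, Ifit3, Mx1, Mx2 and Bst2 were not called in any comparison. Mx1 and Mx2 had their highest zone means at 8.198 and 3.386.

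The rest of the pathway was read from lists of other genes. Of 18 interferon genes 10 had a probe set and 1 was tested. That gene, Ifnz, averaged 96.5 ± 35.6, 22.0 ± 6.77 and 19.3 ± 2.67 in zones I, II and III, and fell by 2.11 ± 0.25 between zones II and I and by 2.27 ± 0.25 between zones III and I. Ifnz reached the floor in zone I alone, so its calls against zone I lean that way by construction. Zone means of the other 9 interferon genes lay between 0.9003 and 48.5, under the floor.

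Of 9 tested kinases and brakes of the pathway 4 rose and 1 fell from zone II to III. Of all tested genes 30.8% rose and 22.7% fell there. Socs3, a feedback inhibitor of cytokine receptors, rose by 2.65 ± 0.47 and had fallen by 1.55 ± 0.47 between zones II and I, and the receptor kinase Jak1 rose by 1.10 ± 0.10. After ribosomal centring 8 of the 9 were called higher in zone III than in zone II and 0 lower. Of 8 tested genes of nucleic acid sensing 4 rose and 0 fell from zone II to III, among them the double-stranded RNA receptor Tlr3 (4.05 ± 0.52), the adaptor Myd88 (1.19 ± 0.13) and Ddx58, which encodes RIG-I (0.97 ± 0.15). Tlr3 and Ddx58 were the 2 that fell between zones II and I (-2.61 ± 0.52 and -0.87 ± 0.15), as 25.4% of all tested genes did. Tlr3 reached the floor in zone III alone (zone means of 36.0, 8.17 and 97.9), and Tlr9 reached it in zone II alone. After quantile normalization or median centring 1 of the 8 was called lower in zone III than in zone II.

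Of 30 other tested interferon-stimulated genes 23 rose and 0 fell from zone II to III (30.8% and 22.7% of all tested genes). Of the 30, 2 rose and 16 fell between zones II and I (16% and 25.4% of all). Between zones III and I the counts were 13 and 2 (21.6% and 21.7%). The medians were 1.52, -0.82 and 0.53, and 1 gene was called lower in zone III than in zone II after quantile normalization or median centring. Among them Ifi204, Parp14 and Eif2ak2 reached the floor in zone III alone, and Cmpk2 and Ifi203 in zone I alone. The calls and medians lean towards those zones by construction for such genes. Rtp4, a chaperone of receptors, averaged 71.2 ± 46.0, 3.07 ± 2.05 and 102.2 ± 33.1 in zones I, II and III, with -4.54 ± 0.43 for zone II against I and 5.20 ± 0.43 for zone III against II. Ifi27, a mitochondrial protein, averaged 784 ± 75.0, 29.1 ± 24.6 and 196.5 ± 6.46, so that like Ifit2 and Ifitm2 it stood highest in zone I (-5.15 ± 0.45 for zone II against I and -1.99 ± 0.45 for zone III against I). Samhd1, which breaks down the nucleotides that viruses need, was with Isg20, a nuclease, 1 of the 2 that rose between zones II and I, and was 1.77 ± 0.16 higher in zone III than in zone I. Ifi204, a DNA sensor related to Ifi202b, rose by 4.68 ± 0.35 from zone II to III. The summed signal of these 30 genes lay at 3324 to 3795, 2056 to 2153 and 4675 to 4789 in zones I, II and III. The myeloid and endothelial sums had the same order, the fibrous tissue sum stood highest in zone I, and no link with cell types was tested.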

How the data were processed

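Affymetrix MOE 430 2.0 arrays of 12 RNA pools were read from the deposited table of linear signal intensities, which the authors had scaled to a common mean of 150.0 (2% of values trimmed from either end). GCRMA and RMA are named in the study's methods and RMA in the notes of the submitters, but the values resemble neither, so the algorithm is not settled. All 12 columns were matched to zones by their titles. Genes were named through GEO's platform annotation by probe sets with 1 symbol (34958 of 45101), so Isg15 and Ifi44 are without values.

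Signals were taken to log2. A model of the zones over all 12 arrays was fitted with limma 3.58.1 (R 4.3.3) to the 22255 probe sets whose zone mean reached 50 in any zone, with Benjamini-Hochberg adjustment over them in each comparison. Values are means ± SD (n = 4) and log2 differences ± SE. The number of arrays limits the precision. The members and lists were chosen with earlier results of these data known. All 39 members are named. From each other list the genes named are among the up to 4 called genes with the largest difference per comparison, with these exceptions. Psmb5, Calr, Canx, Pdia3, Tlr9, Parp14, Eif2ak2, Ifi203 and, for zone III against II, H2-DMb2 are named outside that rule. So are Ifng, Cxcl10, Cxcl9 and Ccl5, which were under the signal floor. Alternatives covered the floor, scaling, an added 16, array weights, a replicate block, fluidics run as a block, other probe sets, a 1.5-fold threshold and leaving out each array. Arrays with the same recorded hybridization date and time were taken as the same fluidics run. Promoters are from RefSeq.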

Additional observations from a re-analysis of the deposited data

Results flagged for a closer look

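In 7 of 111 sets of 4 arrays (37 genes in 3 zones) the lowest or highest array stood apart from the others by more than Dixon's limit for 4 values allows, where chance alone flags about 1 in 20 such sets. Zone I array B was low for Ifnar2 (131.1, the others 181.8 to 190.4) and for Ifih1 (19.04, the others 28.02 to 29.64). Zone I array D was low for Stat3 (265.7, the others 361.6 to 376.3). Zone II array B was low for Irf9 (35.91, the others 45.7 to 47.69), and zone II array D was low for Ifih1 (1.122, the others 13.06 to 18.65). Zone III array B was low for Irf8 (140.8, the others 156.2 to 158.3), and zone III array C was high for Ifit1 (23.2, the others 17.6 to 18.37), a gene under the signal floor.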

How the results depend on the processing

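Over the 24 alternatives that give a value for each gene, 12 of them leaving out 1 array, 39 of the 47 called differences kept their call and direction wherever a value could be had. The exceptions were Trim25 between zones II and I, Ifnar2, Ifngr1 and Rsad2 between zones III and II, and Ifnar1, Ifit2, Ifitm2 and Ifitm3 between zones III and I, and none of them changed direction. A 1.5-fold threshold would end 5 calls, those of Trim25, Ifnar2, Ifnar1 and Ifitm2 in the same comparisons and that of Ifi35 between zones III and I. Scaling moved the median over all genes, to -0.33, 0.48 and 0.14 for zone II against I, III against II and III against I after ribosomal centring and to 0.10, -0.16 and -0.07 after median centring, and low signals limit the size of the differences of Ifi202b, Ifih1 and Ifit2. The cause of these changes was not tested.

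The count of genes higher in zone II than in I was 0 after ribosomal centring, with a 1.5-fold threshold or with second probe sets, against 1. The count lower in zone II than in I was 15 after ribosomal centring, against 8. The count lower in zone III than in I was 0 with no floor and 1 with a floor of 100, ribosomal centring, fluidics run as a block or a 1.5-fold threshold, against 2. Without single arrays the counts ranged from 1 to 1 higher and 8 to 9 lower for zone II against I, 19 to 22 higher and 0 to 0 lower for zone III against II, and 13 to 16 higher and 0 to 2 lower for zone III against I. With the letter as a replicate block, 20 genes were higher in zone III than in II, 14 higher and 3 lower in zone III than in I, and 1 higher and 8 lower in zone II than in I. Deviations from the zone means of arrays with the same letter correlated at -0.128 to 0.257, over 0.1 in 8 of 12 pairs, and an array correlated best with its own letter in 16 of 24 cases of an array and another zone. That hints at pairing without every pair bearing it out, so the main values carry no block. With the block, Ifnar1 between zones III and I (adjusted p = 0.0561) and Ifnar2 between zones III and II (0.0728) were not called and Irf9 between zones III and I was (-0.29, 0.042).

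Between zones II and I, differences that were not called changed sign. They were 0.06 (quantile) and 0.08 (median centring) for Ifnar2, 0.10 (median) for Irf3, 0.11 (quantile) and 0.13 (median) for Irf5, 0.03 (median) for Ifitm1 and 0.04 (median) for B2m. After ribosomal centring they were -0.06 for Ifngr1, -0.15 for Irf8 and -0.06 for Rsad2, and with array weights -0.06 for Irf8. Without single arrays they ranged from -0.11 to 0.02 for Irf5, -0.08 to 0.20 for Irf8, -0.09 to 0.36 for Rsad2 and -0.39 to 0.05 for Ifitm1.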

Other observations

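Ifng, the type II interferon itself, was listed at zone means of 0.9003, 2.48 and 3.86 in zones I, II and III. Cxcl10, a chemokine that interferons induce, was under the signal floor with zone means of 6.33, 13.1 and 29.98, while Cxcl9 and Ccl5, of the same group, stayed at 8 or less in each zone.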
